A study of Mus musculus with 8 samples.

Results

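Hyaluronan is a long, unsulfated sugar chain of the extracellular matrix. It is made at the plasma membrane by hyaluronan synthases, cut by hyaluronidases and bound at the cell surface by receptors such as CD44. In cartilage and other tissues the chains carry large chondroitin sulfate proteoglycans of the lectican family (versican, aggrecan and their relatives), which are held in place by link proteins. In skeletal muscle, hyaluronan and versican lie in the connective tissue around fibres and fascicles, and versican is known from developing and regenerating muscle. The 10 genes described here were chosen by name for these roles: the synthases Has1, Has2 and Has3, the hyaluronidases Hyal1 and Hyal2, the receptor Cd44, the proteoglycans Vcan and Acan, the link protein gene Hapln1, and Tnfaip6, which encodes the hyaluronan-binding protein TSG-6. They are 10 of the 22880 genes listed in the count tables, and all 10 passed the filter on low counts that left 14001 genes tested.

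The data are RNA-seq counts from the soleus, a slow-twitch muscle of the calf, of 8 male mice aged 2 months, of strain C57BL/6 per the labels and C57bl/6 J per the study's methods. The control group is 4 Dnm2 +/+ mice and the other group is 4 Dnm2 +/K562E mice, which carry in every cell a knock-in point mutation in 1 copy of Dnm2, the gene of the membrane-cutting GTPase dynamin 2. The mutant allele also keeps a LoxP site in an intron, and its human counterpart causes a dominant intermediate form of Charcot-Marie-Tooth neuropathy. Each library came from a separate mouse, and the counts per library ranged from 33407430 to 48832814. Dnm2 itself stood at 68.8, 68.5, 59.2 and 68.7 normalized CPM in controls 1 to 4 and at 74.2, 76.1, 73.2 and 70.3 in Dnm2 +/K562E mice 1 to 4, where normalized CPM is the count set against a library total that was scaled by the TMM factor of its library. The difference did not pass the threshold (log2 fold change 0.15 with a standard error of 0.07, adjusted p = 0.0910, edgeR quasi-likelihood test). A point mutation leaves the gene count in place, so this value does not check the genotype labels. The study reported from its reads that the mutation was absent in controls. In Dnm2 +/K562E soleus it found wild-type and mutant transcripts at similar levels. The library of Dnm2 +/K562E mouse 1 is named K452E3 in its description, where the other mutants have K562E, and its title and genotype label were followed. Without it Cd44 (1.38), Vcan (1.11), Tnfaip6 (1.29) and Hyal1 (0.74 on the log2 scale) were still called higher, and Has3 was not called. As a check of the tissue, the slow fibre genes Myh7, Tnnt1, Tnni1, Myl2 and Myl3 summed to 15300 ± 1086 normalized CPM in controls and 9203 ± 1107 in Dnm2 +/K562E mice (SD, n = 4 per group).

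A gene was called when its adjusted p was under 0.05 and its log2 fold change was at least 0.58 in either direction. Of the 10 genes, 4 were called higher in Dnm2 +/K562E soleus (Cd44, Tnfaip6, Vcan and Hyal1), 1 was called lower (Has3) and 5 were not called. Among all tested genes 12.9% were called higher and 7.85% lower. With library size alone in place of TMM factors the calls over all genes went from 1806 higher and 1099 lower to 2865 higher and 564 lower, and the median over all genes moved by 0.21 on the log2 scale. The median log2 fold change of the 10 genes was 0.76, beside 0.01 over all genes tested. Because the 10 genes were chosen with earlier results of these data known, their counts and median are a description and no test of enrichment. The 5 called genes were also the genes of the 10 whose 2 groups of mice did not overlap, 4 of them higher and 1 lower in Dnm2 +/K562E mice. Such separation was found for 20.6% of all tested genes in the higher direction and for 20.5% in the lower.

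**Figure D1:**
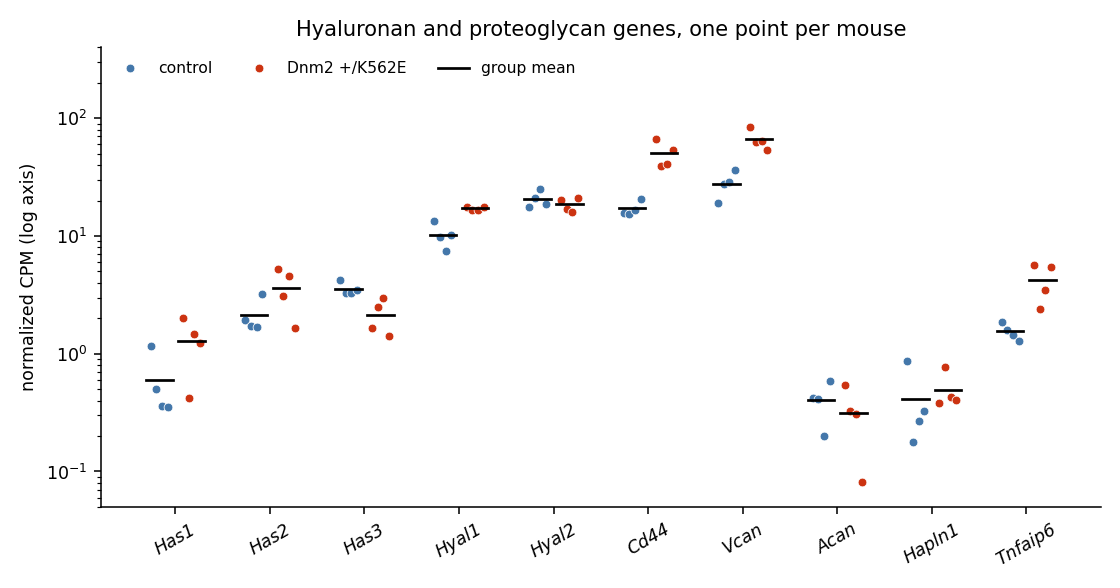
Normalized CPM (log axis) of the 10 genes, with a point for each of the 4 control mice (blue) and 4 Dnm2 +/K562E mice (red) and a black bar for the group mean. Cd44, Vcan, Hyal1 and Tnfaip6 separate upwards and Has3 downwards, while the 2 groups overlap in the other genes.

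**Figure D2:**
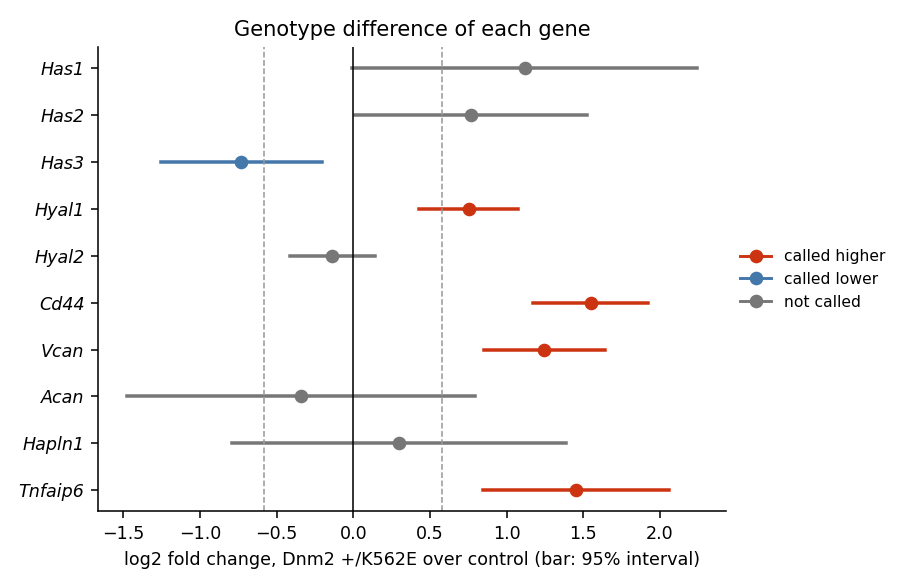
Log2 fold change of each gene between Dnm2 +/K562E and control mice with its 95% interval, where dashed lines mark the threshold of 0.58 on either side. The estimates run from -0.73 for Has3 to 1.55 for Cd44, and the intervals of Has1, Acan and Hapln1 are the widest.

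The sequences just before the transcription start of the genes with the 3 largest called increases are printed here to show how differently they are built. They were taken from windows of the 250 bases before the start of each gene in RefSeq annotation on GRCm38.p6, read 5′ to 3′ on the strand of the gene. For Tnfaip6 the GENCODE M21 gene starts earlier than that of RefSeq, so the last 104 bases of its window lie inside the GENCODE gene and are not printed. Capitals mark letters that match 1 of 4 short motifs, each searched on both strands. These were the AP-1 motif, spelled TGANTCA, and the TEAD motif, spelled CATTCC. The others were the TATA box, spelled TATAAA, and the GC box, spelled GGGCGG, which reads CCGCCC where it lies on the other strand. The AP-1 letters read as the same motif on both strands. The Cd44 window lies at chr2:102901666-102901915 on the minus strand, that of Vcan at chr13:89742513-89742762 on the minus strand and that of Tnfaip6 at chr2:52037863-52038008 on the plus strand.
Cd44: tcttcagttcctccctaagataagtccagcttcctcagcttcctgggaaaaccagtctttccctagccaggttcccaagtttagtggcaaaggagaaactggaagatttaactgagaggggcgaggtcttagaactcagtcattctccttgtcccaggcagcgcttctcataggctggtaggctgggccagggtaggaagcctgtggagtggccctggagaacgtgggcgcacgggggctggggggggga
Vcan: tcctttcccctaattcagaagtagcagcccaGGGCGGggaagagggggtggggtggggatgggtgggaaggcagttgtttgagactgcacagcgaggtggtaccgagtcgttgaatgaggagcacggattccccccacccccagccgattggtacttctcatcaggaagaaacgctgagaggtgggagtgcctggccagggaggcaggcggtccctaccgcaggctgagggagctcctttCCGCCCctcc
Tnfaip6: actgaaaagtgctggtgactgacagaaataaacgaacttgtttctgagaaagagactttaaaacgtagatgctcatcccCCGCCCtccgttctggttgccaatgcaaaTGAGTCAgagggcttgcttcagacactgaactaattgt
The Tnfaip6 window held an AP-1 match from -142 to -136 and a GC box from -171 to -166 relative to the RefSeq start, and a TEAD match from -8 to -3 in the bases inside the GENCODE gene. In Vcan there were GC boxes from -219 to -214 and from -10 to -5, and in Cd44 no match to the 4 motifs. Over 32851 RefSeq windows of this length, 6.75% held the AP-1 letters, 12.64% the TEAD letters, 12.37% the TATA letters and 32.74% the GC box, and whether any match is bound was not tested. GC content of the printed bases was 56.4% for Cd44, 62.4% for Vcan and 44.5% for Tnfaip6. Of the 10 genes, 8 had a window in the table used, and the entries for Has2 and Has3 are missing from it.

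Cd44, the main cell-surface receptor for hyaluronan, had the largest increase of the 10 genes. It lies on chromosome 2 from 102811141 to 102901665 on the minus strand (ENSMUSG00000005087, GRCm38), and counts were taken over its exons. Controls 1 to 4 had 15.7, 15.5, 16.6 and 20.8 normalized CPM of Cd44, and Dnm2 +/K562E mice 1 to 4 had 67.1, 39.3, 40.6 and 53.8. The lowest Dnm2 +/K562E mouse was thus well above the highest control, and Dnm2 +/K562E mouse 1 was the highest of all. The mean rose from 17.1 ± 2.49 to 50.2 ± 13.0 normalized CPM (SD, n = 4 per group), a log2 fold change of 1.55 with a standard error of 0.17 and a 95% interval of 1.17 to 1.92 (adjusted p = 4.14e-05, edgeR quasi-likelihood test). In a bulk sample such as this, more cells that express a gene and more of its RNA per cell cannot be told apart.

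Other receptors for hyaluronan were followed as a list of 5 genes, all of which were tested. In it 3 were called higher and 0 lower by the edgeR quasi-likelihood test, also 0 lower by DESeq2 and at an unadjusted p under 0.05. Their median log2 fold change was 0.76. Hmmr, the hyaluronan-mediated motility receptor and also a mitotic spindle protein, rose from 0.395 ± 0.192 to 1.10 ± 0.152 normalized CPM (SD, n = 4 per group), a log2 fold change of 1.46 (adjusted p = 0.00962, edgeR quasi-likelihood test). Lyve1, a receptor of lymphatic endothelium and of some tissue macrophages, stood at 12.4, 13.9, 13.3 and 28.6 normalized CPM in controls 1 to 4 and at 45.4, 36.1, 26.2 and 22.3 in Dnm2 +/K562E mice 1 to 4. Control 4 therefore lay inside the range of the mutants for Lyve1. The log2 fold change of Lyve1 was 0.93 (adjusted p = 0.0217, edgeR quasi-likelihood test), and leaving out single mice in turn gave 0.73 to 1.29, with the call lost in 4 of 8 cases (0.84 without control 2, 0.83 without control 3, 0.73 and 0.88 without Dnm2 +/K562E mouse 1 or 2). Layn, the gene of layilin, rose by 0.76 on the log2 scale (adjusted p = 0.0228, edgeR quasi-likelihood test), a call lost without control 4 (0.60), Dnm2 +/K562E mouse 1 (0.72) or Dnm2 +/K562E mouse 2 (0.60). Stab1, a scavenger receptor of macrophages and endothelium and the most abundant of the list, had a log2 difference between genotypes of 0.47 (adjusted p = 0.0192, edgeR quasi-likelihood test), under the fold threshold, and was called higher without control 4 (0.61) and with library size alone (0.69). Stab2 had one of -0.40 (adjusted p = 0.229, edgeR quasi-likelihood test).

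Versican is the large proteoglycan of this set that soleus expressed in quantity. Vcan lies on chromosome 13 from 89655312 to 89742509 on the minus strand (ENSMUSG00000021614). Its normalized CPM was 19.2, 27.4, 28.6 and 36.2 in controls 1 to 4 and 83.7, 62.8, 64.5 and 53.5 in Dnm2 +/K562E mice 1 to 4. Again no mutant overlapped a control, the highest value belonged to Dnm2 +/K562E mouse 1, and control 4 was the highest control. Vcan rose from 27.9 ± 6.98 to 66.1 ± 12.7 normalized CPM (SD, n = 4 per group), a log2 fold change of 1.25 with a standard error of 0.18 and a 95% interval of 0.85 to 1.64 (adjusted p = 2.6e-04, edgeR quasi-likelihood test). These are counts per gene, so the splice forms of Vcan, which differ in how much chondroitin sulfate they carry, were not separated.

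Acan and Hapln1, the genes of cartilage aggrecan and of its link protein, were near the detection limit in soleus. Acan, on chromosome 7 from 79053483 to 79115099 on the plus strand (ENSMUSG00000030607), had 9 to 20 reads in the control libraries and 3 to 20 in those of the mutants. Its normalized CPM was 0.417, 0.416, 0.202 and 0.589 in controls 1 to 4 and 0.543, 0.325, 0.310 and 0.0811 in Dnm2 +/K562E mice 1 to 4, and the groups overlapped. The log2 fold change of Acan was -0.34, with a 95% interval of -1.48 to 0.79 that holds changes in both directions (adjusted p = 0.619, edgeR quasi-likelihood test). Hapln1, on chromosome 13 from 89539796 to 89611652 on the plus strand (ENSMUSG00000021613), had 6 to 33 reads per library. It stood at 0.864, 0.178, 0.269 and 0.324 normalized CPM in controls 1 to 4 and at 0.380, 0.767, 0.429 and 0.405 in Dnm2 +/K562E mice 1 to 4, again with overlap. Its log2 fold change of 0.30 had a 95% interval of -0.79 to 1.39 (adjusted p = 0.652, edgeR quasi-likelihood test). Without control 1 it was 0.94 and without Dnm2 +/K562E mouse 2 it was 0.00, and that of Acan ran from -0.72 to -0.04 when single mice were left out, none of them called. Hapln1 is the chromosomal neighbour of Vcan, 43.66 kb away on the opposite strand, and Acan ends 2 bases from Hapln3, another link protein gene on the opposite strand. For both low genes no difference was detected, and the intervals leave room for changes in either direction.

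Tnfaip6 encodes TSG-6, a secreted protein that binds hyaluronan and moves heavy chains of inter-alpha-trypsin inhibitor onto it. The gene lies on chromosome 2 from 52038009 to 52056686 on the plus strand (ENSMUSG00000053475). Controls 1 to 4 had 1.85, 1.60, 1.46 and 1.29 normalized CPM of Tnfaip6, whereas Dnm2 +/K562E mice 1 to 4 had 5.62, 2.42, 3.48 and 5.49. The mutants varied more than the controls, with mice 1 and 4 high and mouse 2 closest to the control range. The mean rose from 1.55 ± 0.234 to 4.25 ± 1.57 normalized CPM (SD, n = 4 per group), a log2 fold change of 1.45 with a standard error of 0.28 and a 95% interval of 0.84 to 2.06 (adjusted p = 0.00155, edgeR quasi-likelihood test).

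The heavy chain genes and other binding partners of hyaluronan formed a list of 12 genes, of which 4 were tested. Here 2 were called higher and 1 lower, with a median log2 fold change of 0.42. Itih5, an inter-alpha-trypsin inhibitor heavy chain gene, rose from 76.8 ± 10.2 to 176 ± 11.3 normalized CPM (SD, n = 4 per group), a log2 fold change of 1.20 (adjusted p = 3.72e-06, edgeR quasi-likelihood test). It was by far the most abundant gene of that list. Itih2, which encodes a heavy chain better known from liver, rose with a log2 fold change of 0.86 at a low level of 1.98 ± 0.241 normalized CPM in controls and 3.58 ± 0.361 in Dnm2 +/K562E mice (SD, n = 4 per group, adjusted p = 0.00168, edgeR quasi-likelihood test). Ptx3, the gene of a pentraxin that takes part with TSG-6 in the cross-linking of hyaluronan, fell from 1.45 ± 0.209 to 0.827 ± 0.197 normalized CPM (SD, n = 4 per group), a log2 fold change of -0.80 (adjusted p = 0.0258, edgeR quasi-likelihood test). The Ptx3 call was lost with library size alone (-0.59), with a block by the mouse numbers of the titles (-0.81) or of the descriptions (-0.82), and without control 1 (-0.73), control 3 (-0.76), Dnm2 +/K562E mouse 1 (-0.73) or Dnm2 +/K562E mouse 4 (-0.69). Hapln3 did not pass (log2 fold change -0.02, adjusted p = 0.977, edgeR quasi-likelihood test).

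Of the 3 synthases, Has3 was called lower, and Has1 and Has2 had positive log2 fold changes that missed the threshold. The difference between these changes was not tested. Has3 lies on chromosome 8 from 106870242 to 106884566 on the plus strand (ENSMUSG00000031910), and its enzyme is known for making shorter chains than the other two. Has3 was at 4.26, 3.27, 3.27 and 3.44 normalized CPM in controls 1 to 4 and at 1.66, 2.51, 2.96 and 1.41 in Dnm2 +/K562E mice 1 to 4. The groups did not overlap, although mouse 3 of the mutants came close to the lowest controls. The mean fell from 3.56 ± 0.474 to 2.13 ± 0.725 normalized CPM (SD, n = 4 per group), a log2 fold change of -0.73 with a standard error of 0.24 and a 95% interval of -1.26 to -0.21 (adjusted p = 0.0285, edgeR quasi-likelihood test). This call was lost with library size alone (-0.52, adjusted p = 0.0996), with a block by the mouse numbers of the titles (-0.78, adjusted p = 0.0546, both edgeR quasi-likelihood test) and when control 1 (-0.64), Dnm2 +/K562E mouse 1 (-0.63) or Dnm2 +/K562E mouse 4 (-0.58) was left out. In the GENCODE M21 annotation Has3 shares 352 exon bases, or 5.52% of its own, with Chtf8 on the opposite strand, and whether the counting used strand is not given in the sources used here. Chtf8, which encodes a subunit of a clamp-loading complex of DNA replication, had a log2 difference between genotypes of -0.14 (adjusted p = 0.277, edgeR quasi-likelihood test).

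Has2, whose enzyme is the main hyaluronan synthase of the embryo, lies on chromosome 15 from 56665627 to 56694539 on the minus strand (ENSMUSG00000022367). Its normalized CPM was 1.94, 1.72, 1.70 and 3.24 in controls 1 to 4 and 5.21, 3.11, 4.60 and 1.65 in Dnm2 +/K562E mice 1 to 4. Mutants 1 and 3 lay above all controls, mutant 2 just below control 4, and mutant 4 below every control. The log2 fold change of Has2 was 0.77 with a 95% interval of 0.01 to 1.52 (adjusted p = 0.0929, edgeR quasi-likelihood test). Without control 4 or without Dnm2 +/K562E mouse 4 it was 1.02 (adjusted p = 0.0369) or 1.01 (adjusted p = 0.0160, both edgeR quasi-likelihood test), past the threshold.

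Has1 had the lowest mean level per kb of exon length of the 3 synthases in both groups, with 12 to 74 reads per library. Its level per kb was above that of Has3 in Dnm2 +/K562E mice 1 and 4. Has1 lies on chromosome 17 from 17843323 to 17855205 on the minus strand (ENSMUSG00000003665). It stood at 1.16, 0.505, 0.358 and 0.353 normalized CPM in controls 1 to 4 and at 2.01, 0.418, 1.48 and 1.24 in Dnm2 +/K562E mice 1 to 4. Mutant 2 fell among the controls, while the other 3 mutants lay above all of them. The log2 fold change of Has1 was 1.12 with a standard error of 0.51 and a 95% interval of -0.01 to 2.25 (adjusted p = 0.0983, edgeR quasi-likelihood test). Leaving out control 1 gave 1.65 (adjusted p = 0.0196) and leaving out Dnm2 +/K562E mouse 2 gave 1.42 (adjusted p = 0.0282, both edgeR quasi-likelihood test), past the threshold, whereas without Dnm2 +/K562E mouse 1 it was 0.82.

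To compare the synthases with each other, each normalized CPM was divided by the exon length of the gene in kb. The sum of the 3 synthases was 1.20 ± 0.214 normalized CPM per kb in controls and 1.48 ± 0.512 in Dnm2 +/K562E mice (SD, n = 4 per group). Of that sum Has3 made up 48.3%, 49.7%, 51.6% and 39.1% in controls 1 to 4 and 13.4%, 32.2%, 24.7% and 24.9% in Dnm2 +/K562E mice 1 to 4, so that its share was lower in every mutant than in any control. The mean share of Has2 was 42.1% ± 9.40 in controls and 56.4% ± 8.61 in mutants (SD, n = 4 per group), and that of Has1 was 10.8% ± 5.64 and 19.8% ± 9.88. Has2 was thus the largest share in all 4 Dnm2 +/K562E mice and in control 4, and Has3 the largest in the other 3 controls. These shares hold the same counts as the tests above and are given as a description, and they say nothing of enzyme amount or activity.

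**Figure D3:**
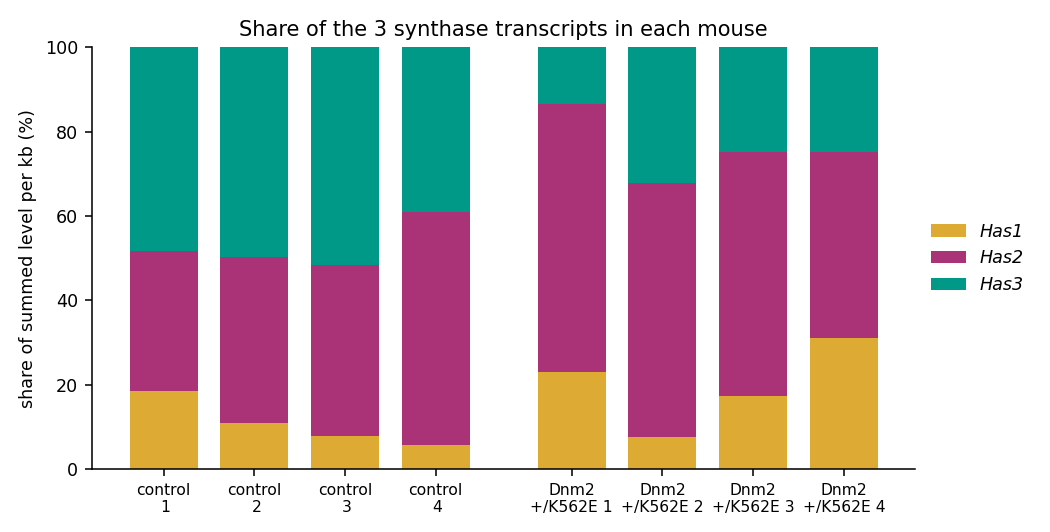
Share (%) of Has1, Has2 and Has3 in the summed normalized CPM per kb of the 3 synthases, with a stacked bar for each mouse. Has3 takes 39.1% to 51.6% in the 4 controls and 13.4% to 32.2% in the 4 Dnm2 +/K562E mice.

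The enzymes that supply the synthases with UDP-sugars formed a list of 7 genes, all tested, of which 1 was called higher (median log2 fold change 0.34). The called gene was Ugdh, which makes UDP-glucuronic acid and so the precursor shared by hyaluronan and chondroitin sulfate. Ugdh had 15.1, 17.1, 15.1 and 19.2 normalized CPM in controls 1 to 4 and 28.6, 22.5, 27.8 and 24.4 in Dnm2 +/K562E mice 1 to 4, with no overlap. Its log2 fold change was 0.64 with a standard error of 0.11 (adjusted p = 6.59e-04, edgeR quasi-likelihood test). Ugp2, which makes UDP-glucose one step earlier and also feeds glycogen synthesis, was the most abundant of the list at 980 ± 106 normalized CPM in controls and 671 ± 80.8 in Dnm2 +/K562E mice (SD, n = 4 per group). Its log2 fold change of -0.55 had an adjusted p of 0.00137 (edgeR quasi-likelihood test) and was under the fold threshold, which it passed without control 1 (-0.63) or without Dnm2 +/K562E mouse 4 (-0.62).

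Of the 2 hyaluronidases, Hyal1 was called higher and Hyal2 was not called, and the difference between their changes was not tested. Hyal1 encodes a lysosomal hyaluronidase and Hyal2 a GPI-anchored one at the cell surface, and the genes lie 4.15 kb apart on the plus strand of chromosome 9, Hyal2 from 107567945 to 107572779 (ENSMUSG00000010047) and Hyal1 from 107576927 to 107581710 (ENSMUSG00000010051). Hyal1 stood at 13.5, 9.74, 7.53 and 10.1 normalized CPM in controls 1 to 4 and at 17.7, 16.7, 16.8 and 17.7 in Dnm2 +/K562E mice 1 to 4. The mutants lay close together and above every control. Hyal1 rose from 10.2 ± 2.48 to 17.2 ± 0.572 normalized CPM (SD, n = 4 per group), a log2 fold change of 0.75 with a standard error of 0.15 and a 95% interval of 0.43 to 1.08 (adjusted p = 0.00179, edgeR quasi-likelihood test).

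The Hyal1 count is uncertain, because 1920 exon bases, or 50.8% of its exon length, are shared on the same strand with Naa80, the gene of the enzyme that acetylates actin, and reads over shared exons were counted for each gene. Naa80 went from 23.6 ± 1.51 to 30.7 ± 1.32 normalized CPM (SD, n = 4 per group), a log2 fold change of 0.38 (adjusted p = 0.00111, edgeR quasi-likelihood test), and was called higher with library size alone (0.59). The difference between group means was 6.98 normalized CPM for Hyal1 and 7.13 for Naa80. The part of Naa80 reads in the Hyal1 difference was not tested.

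Hyal2 had 17.5, 20.9, 24.9 and 18.6 normalized CPM in controls 1 to 4 and 20.4, 17.1, 16.1 and 21.1 in Dnm2 +/K562E mice 1 to 4, so the groups overlapped. Its log2 fold change was -0.14 with a 95% interval of -0.42 to 0.14 (adjusted p = 0.401, edgeR quasi-likelihood test), and the estimate changed sign with library size alone. Of 7 other genes of hyaluronan degradation, Hyal4, Hyal5, Hyal6 and Spam1, mainly known from testis and other specialized sites, had no read in any mouse, which allows a level of up to 0.0898 CPM in the shallowest library. Cemip was too low to be tested. Cemip2, a cell-surface hyaluronan-degrading protein gene, went from 17.9 ± 1.91 to 22.5 ± 3.14 normalized CPM (SD, n = 4 per group) with a log2 difference between genotypes of 0.33 (adjusted p = 0.0332, edgeR quasi-likelihood test), under the fold threshold. Hyal3, whose exons overlap those of Hyal1, had a log2 difference between genotypes of 0.40 (adjusted p = 0.142, same test) and was called higher with library size alone (0.61).

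On the length-scaled level, the order of the 10 genes in controls was led by Hyal2 at 6.22 ± 0.995 normalized CPM per kb (SD, n = 4), followed by Hyal1 at 2.71, Cd44 at 2.53, Vcan at 1.93, Tnfaip6 at 0.907, Has3 at 0.558, Has2 at 0.507, Has1 at 0.132, Hapln1 at 0.0693 and Acan at 0.0543. The ranges over the 4 controls did not overlap between Hyal2 and Hyal1, Vcan and Tnfaip6, Tnfaip6 and Has3, or Has2 and Has1, while the other neighbours in the order overlapped. In Dnm2 +/K562E mice the order was led by Cd44 at 7.41 ± 1.92 normalized CPM per kb (SD, n = 4), followed by Hyal2 at 5.66, Vcan at 4.57, Hyal1 at 4.56, Tnfaip6 at 2.49, Has2 at 0.860, Has3 at 0.334, Has1 at 0.285, Hapln1 at 0.0840 and Acan at 0.0422. Here the ranges were apart only between Hyal1 and Tnfaip6 and between Tnfaip6 and Has2. Dnm2 +/K562E mouse 1 had the highest mutant level in 6 of the 10 genes (Has1, Has2, Cd44, Vcan, Acan and Tnfaip6), while the lowest mutant level belonged to mouse 2 for Has1, Hyal1, Cd44 and Tnfaip6 and to mouse 4 for Has2, Has3, Vcan and Acan. Among controls, mouse 1 was highest in 5 genes (Has1, Has3, Hyal1, Hapln1 and Tnfaip6) and mouse 4 in 4 (Has2, Cd44, Vcan and Acan), and mouse 4 was lowest for Has1 and Tnfaip6.

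The matrix proteins that bind the C-terminal G3 domain of lecticans were followed as a list of 5 genes. Of 4 tested, 3 were called higher, with a median log2 fold change of 0.71. Tnc, the gene of tenascin-C, a matrix glycoprotein of tendon and of injured muscle, stood at 12.2, 12.7, 14.6 and 22.5 normalized CPM in controls 1 to 4 and at 125, 70.4, 69.2 and 84.2 in Dnm2 +/K562E mice 1 to 4. As for Cd44 and Vcan, Dnm2 +/K562E mouse 1 was the highest mutant and control 4 the highest control. The log2 fold change of Tnc was 2.49 with a standard error of 0.23 (adjusted p = 1.42e-05, edgeR quasi-likelihood test). Fbln2, the gene of fibulin-2, rose from 217 ± 7.92 to 341 ± 28.8 normalized CPM (SD, n = 4 per group), a log2 fold change of 0.65 (adjusted p = 3.28e-05, edgeR quasi-likelihood test). Fbn1, the gene of the microfibril protein fibrillin-1, rose by 0.77 on the log2 scale (adjusted p = 0.00258, edgeR quasi-likelihood test), and 20.1% of its exon bases overlap a gene on the other strand. Fbln1 had a log2 difference between genotypes of 0.50 (adjusted p = 0.0906, edgeR quasi-likelihood test). Tnr, the gene of tenascin-R, did not pass the filter on low counts, with 4, 3, 0 and 1 reads in controls 1 to 4 and 26, 53, 9 and 39 in Dnm2 +/K562E mice 1 to 4, so the groups did not overlap. With no filter on low counts Tnr was called higher (adjusted p = 0.00181, edgeR quasi-likelihood test).

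The ADAMTS proteases that can cut versican or aggrecan were a list of 7 genes, all tested, with 1 called higher, 1 called lower and a median log2 fold change of -0.49. Adamts8 rose from 20.7 ± 1.81 to 55.2 ± 5.09 normalized CPM (SD, n = 4 per group), a log2 fold change of 1.42 with a standard error of 0.09 (adjusted p = 1.29e-06, edgeR quasi-likelihood test). Adamts15 fell from 8.03 ± 1.54 to 4.47 ± 0.991 normalized CPM (SD, n = 4 per group), a log2 fold change of -0.85 (adjusted p = 0.00384, edgeR quasi-likelihood test). Adamts1, a versican-cleaving protease and the most abundant of the list, had a log2 difference between genotypes of -0.49 (adjusted p = 0.0279, edgeR quasi-likelihood test), under the fold threshold, and was called lower without control 1 (-0.63). Of the Adamts8 sequence, 9.41% of 31-base stretches are shared with another gene model. Adamts4 had the largest negative estimate, a log2 fold change of -1.39, with an adjusted p of 0.0520 (edgeR quasi-likelihood test). Control 1 had 0.447 normalized CPM of Adamts4 against 3.62 to 5.02 in the other controls and 0.954 to 1.77 in the mutants, and Adamts4 was called lower without control 1 (-1.76), by the exact test of edgeR (-1.38) and with no filter on low counts (-1.40). Adamts9 was lower by -0.52 on the log2 scale and missed only the fold threshold (adjusted p = 0.00481, edgeR quasi-likelihood test). Its groups did not overlap, with 35.7 to 46.4 normalized CPM in controls and 23.7 to 32.0 in Dnm2 +/K562E mice. Adamts5 (-0.21, adjusted p = 0.437) and Adamts20 (0.30, adjusted p = 0.0921, both edgeR quasi-likelihood test) were not called either.

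Enzymes that build and sulfate the chondroitin and dermatan sulfate chains of proteoglycans such as versican were a list of 22 genes. Of 21 tested, 7 were called higher and 1 lower, with a median log2 fold change of 0.22. The higher genes included Chpf, which encodes a chondroitin polymerizing factor (20.6 ± 2.58 to 41.7 ± 5.50 normalized CPM, SD, n = 4 per group, log2 fold change 1.02, adjusted p = 4.24e-05, edgeR quasi-likelihood test). Dse and Dsel, both of which encode epimerases that turn chondroitin into dermatan sulfate, each had a log2 difference between genotypes of 1.07 (adjusted p = 4.69e-04 for Dse and 1.04e-04 for Dsel, edgeR quasi-likelihood test). Ust, a uronyl 2-O-sulfotransferase gene, rose from 3.83 ± 0.964 to 9.56 ± 1.30 normalized CPM (SD, n = 4 per group), a log2 fold change of 1.32 (adjusted p = 1.43e-04, edgeR quasi-likelihood test). The lower gene was Chst3, a chondroitin 6-O-sulfotransferase gene, with a log2 difference between genotypes of -0.66 (adjusted p = 0.0135, edgeR quasi-likelihood test), and its call was lost with library size alone (-0.46) and without Dnm2 +/K562E mouse 1 (-0.54). Fam20b, a xylose kinase gene of the linker region and the most abundant of the list, was at 75.2 ± 3.60 normalized CPM in controls and 78.3 ± 5.03 in Dnm2 +/K562E mice (SD, n = 4 per group), with a log2 difference between genotypes of 0.06 (adjusted p = 0.504, edgeR quasi-likelihood test). Over all 7 lists, 17 of 50 tested genes were called higher and 3 lower, beside 12.9% higher and 7.85% lower among all tested genes. The lists too were chosen with earlier results of these data known, so these counts are no test of enrichment.

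**Figure D4:**
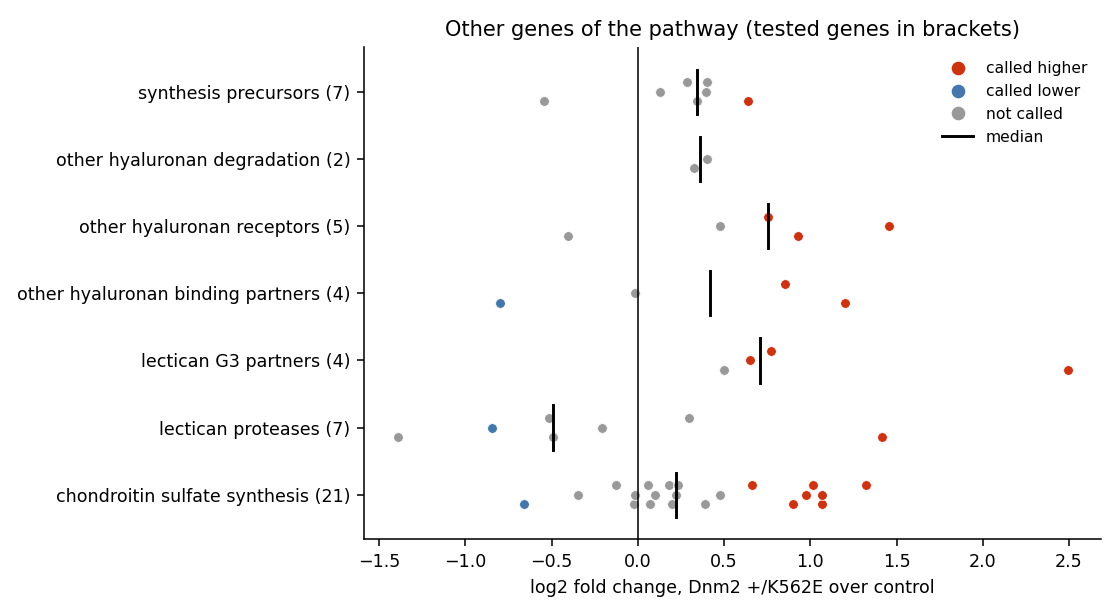
Log2 fold change between Dnm2 +/K562E and control mice of each tested gene in the 7 pathway lists, with the number of tested genes in brackets and a black bar for the median of each list. Called genes are red (higher, 17 in all) or blue (lower, 3 in all), and the point farthest right is Tnc at 2.49.

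Markers of several other cell types moved with genotype in the same libraries. The counts of called markers stand beside 12.9% called higher and 7.85% called lower among all tested genes. These marker lists were also chosen with earlier results of these data known. Tendon markers had 6 of 6 tested genes called higher, and their summed level was 831 ± 267 normalized CPM in controls and 3389 ± 408 in Dnm2 +/K562E mice (SD, n = 4 per group), led by Thbs4. Without Thbs4 the other 5 tendon markers summed to 464 ± 166 and 1028 ± 144 normalized CPM, a ratio of 2.21 in place of 4.08. Of macrophage markers, 6 of 7 were called higher, with sums of 161, 168, 160 and 297 normalized CPM in controls 1 to 4 and 598, 516, 491 and 368 in Dnm2 +/K562E mice 1 to 4, led by Lyz2, which shares 32.8% of its 31-base stretches with Lyz1. Fibroblast markers had 6 of 8 called higher, with sums of 1406 ± 215 and 2544 ± 229 normalized CPM (SD, n = 4 per group), led by Dcn. The highest macrophage sums of each group belonged to control 4 and Dnm2 +/K562E mouse 1, the highest tendon sums to control 1 and Dnm2 +/K562E mouse 1, and the highest fibroblast sums to control 4 and Dnm2 +/K562E mouse 2. Muscle fibre markers had 3 of 8 called lower and summed to 59960 ± 4217 normalized CPM in controls and 40760 ± 2480 in Dnm2 +/K562E mice (SD, n = 4 per group), led by Acta1. Most of that sum came from Acta1, Ckm and Mb, which all skeletal fibres express, at 44660 ± 3263 and 31560 ± 1868 normalized CPM, with 1 of the 3 called lower, and 2 of the 5 slow fibre genes were called lower. Satellite cell markers had 3 of 4 called lower, with log2 fold changes of -2.03 for Pax7, -1.84 for Myf5 and -3.47 for Calcr and a list median of -1.94, whereas Cdh15, the most abundant, was at 0.08 and kept the mutant sum at 0.755 of the control sum. Endothelial markers had 1 of 4 called lower, with the mutant sum at 0.762 of the control sum, led by Cdh5. Schwann cell markers had 0 of 5 called by the edgeR quasi-likelihood test or by DESeq2, 1 at an unadjusted p under 0.05, and sums that overlapped between groups, led by Pmp22. The part of these cell types in the rise of Cd44, Vcan, Tnfaip6 and their partners was not tested.

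Cartilage markers bear on Acan and Hapln1. Of 7 such markers 4 were tested and 0 called by the edgeR quasi-likelihood test, by DESeq2 or at an unadjusted p under 0.05. Their sums were 43.3 ± 4.88 normalized CPM in controls and 48.0 ± 7.94 in Dnm2 +/K562E mice (SD, n = 4 per group), Col11a2 led the list and Matn1 had no read in any mouse.

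**Figure D5:**
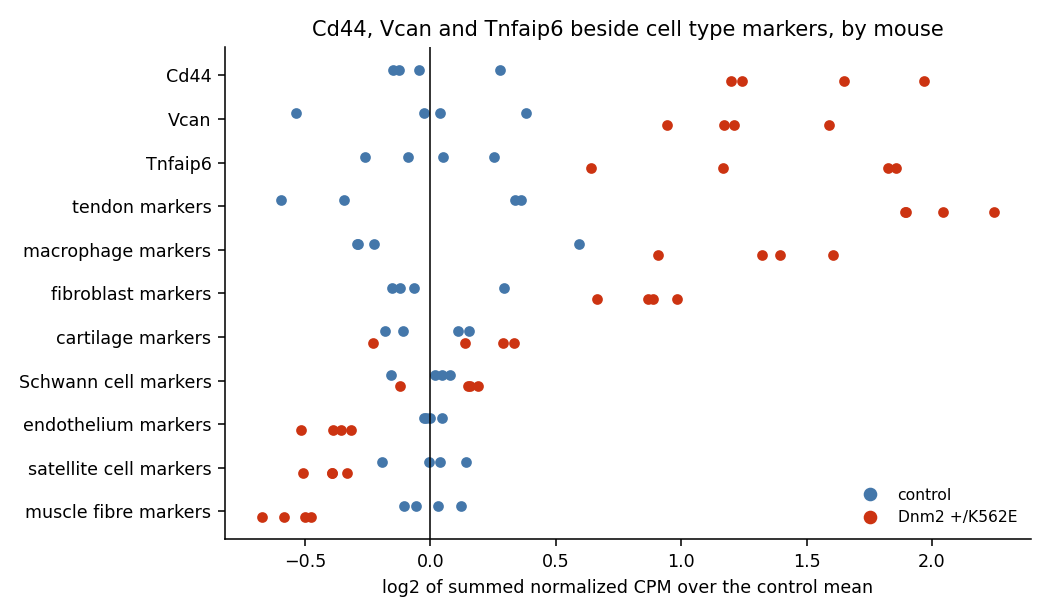
Log2 of the normalized CPM in each mouse over the control mean for Cd44, Vcan and Tnfaip6 and for the summed levels of 8 cell type marker lists, with control mice in blue and Dnm2 +/K562E mice in red. Tendon, macrophage and fibroblast sums are higher in every mutant, muscle fibre, satellite cell and endothelial sums lower, and cartilage and Schwann cell sums overlap.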

How the data were processed

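Soleus RNA of 4 control and 4 Dnm2 +/K562E mice was sequenced. Per the labels and the study's methods, read trimming by the authors used Trimmomatic 0.33, alignment to the GRCm38 genome used STAR 2.5.1b, and counting per Ensembl gene used featureCounts, keeping primary alignments and counting a read for every gene it overlapped. The deposited values are raw counts. The study's methods name a poly(A) kit and the labels a stranded total RNA kit, and the strand setting of the counting is not given in the sources used here.

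Of 22880 gene IDs, 22570 matched the GENCODE M21 annotation, which gave positions, exon lengths and overlaps. Genes were kept by filterByExpr of edgeR 4.0.16 (R 4.3.3) with a minimum count of 10 and a minimum total of 15, scaled by TMM factors (0.9145 to 1.103) and tested with the quasi-likelihood F test, with Benjamini-Hochberg adjustment over all 14001 genes. No covariate was used. On data simulated for this comparison with a log2 change of 1.5, 196 of 196 changed genes tested among 13924 were called, with 7 false calls. Every simulated gene had the same dispersion. The result therefore checks the code and does not give the power for smaller changes or for genes as variable as Has1 and Has2. Replicate libraries differed by more than sampling noise (chi-square per degree of freedom 12.63 to 55.18).

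The 10 genes, the pathway lists and the marker lists were chosen with earlier results of these data known. Named genes are Dnm2, the 10 genes, genes whose exons overlap theirs, in each pathway list all called genes (the 4 with the smallest p where over 6 were called in a list) and the most abundant gene, and in each marker list the most abundant gene and any without reads. Other list genes were named to account for small counts, and the muscle fibre list was split, after their values were seen. Alternatives tried were DESeq2 1.42.0, edgeR's exact test, other normalizations and filters, replicate blocks, no fold threshold, the longest transcript as length, and leaving out each mouse.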

Additional observations from a re-analysis of the deposited data

Results flagged for a closer look

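Among 36 genes and 72 groups of 4 mice, 7 groups held 1 mouse farther from the others than Dixon's criterion allows, where chance gives about 1 in 20. Has2 was at 3.24 normalized CPM in control 4, with the nearest control at 1.94. Hapln1 was at 0.767 in Dnm2 +/K562E mouse 2, with the nearest mutant at 0.429, a difference that rests on 33 and 18 reads. Dnm2 was lowest in control 3, at 59.2 against 68.5 for the nearest control. Among the pathway lists, Cemip2 was at 20.8 in control 3 (nearest 17.2), Lyve1 at 28.6 in control 4 (nearest 13.9), Ust at 5.27 in control 4 (nearest 3.43) and Fam20b at 85.8 in Dnm2 +/K562E mouse 4 (nearest 76.8), all in normalized CPM.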

How the results depend on the processing

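Cd44, Vcan, Tnfaip6 and Hyal1 kept their calls in all 16 alternatives, with log2 fold changes of 1.38 to 1.76, 1.10 to 1.46, 1.29 to 1.66 and 0.63 to 0.96. With library size alone Has2 passed (0.98, adjusted p = 0.0421) and Has3 did not (-0.52, adjusted p = 0.0996, both edgeR quasi-likelihood test), Hyal2 and Chtf8 changed sign (to 0.0743 and 0.0729), 0 of the 10 genes were called lower, 2865 genes were called higher and 564 lower, and 1 pathway list gene was called lower. That setting moved the median of all genes by 0.21. With no fold threshold 3103 genes were called higher, 3036 lower and 7 pathway list genes lower. Leaving out each mouse in turn gave 0.82 to 1.65 for Has1, 0.55 to 1.02 for Has2, -0.93 to -0.58 for Has3, 0 to 1 of the 10 genes called lower and 2 to 5 pathway list genes called lower. With the longest transcript as length the control level was 3.39 normalized CPM per kb for Hyal1 and 3.06 for Cd44. In the Dnm2 +/K562E means, Has1 and Has3 then changed places in the order, and so did Vcan and Hyal1.

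The replicate block by the mouse numbers of the titles gave -0.78 for Has3 (adjusted p = 0.0546, edgeR quasi-likelihood test), so that 0 of the 10 genes were called lower, and that by the numbers in the descriptions gave -0.78 (adjusted p = 0.0252, same test). Neither block changed another call among the 10 genes. Same-numbered mice did not on average deviate together (mean r = -0.114 and -0.0302, single pairs from -0.213 to 0.178). With so few pairs this cannot settle whether they shared a litter or a batch. The causes of these changes were not tested. Acan and Hapln1 gave no value where 10 counts were required in every mouse. Counts were lowest for Acan, Hapln1 and Has1, with 3 to 74 reads per library, and their 95% intervals were the widest of the 10 genes.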
